A study of Xenopus laevis with 8 samples.

Results

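The genes described here encode the complexes that methylate histone H3 at lysine 4 (H3K4), measured as RNA in the brains of Xenopus laevis tadpoles. They were found by symbol, as the rows of the count table named kmt2a, kmt2c, kmt2d, kmt2e, setd1a, setd1b, wdr5, ash2l, rbbp5 or dpy30 once the L or S ending was removed. This gave 19 of 41881 genes, and all 19 were among the 25171 with enough counts to be tested. X. laevis is allotetraploid, with an L and an S copy (homeologue) of many genes, and each copy was counted on its own. Of the members, 12 carry a SET domain (called catalytic here, with kmt2e among them) and 7 belong to the shared core. rbbp5 was represented by its S homeologue alone.

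The tested animals were neurod2 CRISPants, raised from eggs that received S. pyogenes Cas9 together with an sgRNA causing a frame shift in both neurod2 homeologues. Their siblings received Cas9 with no sgRNA and served as controls, so Cas9 itself was shared by both groups. CRISPants are F0 mosaics in which edited and unedited cells are mixed. Each library came from 4 whole brains dissected at stage NF 47 and pooled, with 4 pools per group (CRISPant pools 3, 4, 7 and 9, and control pools 1, 2, 4 and 5). Every animal came from 1 sibship, so the spread between pools is that of siblings.

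H3K4 methylation marks active genes. In vertebrates it is written by the KMT2 (MLL) and SETD1 enzymes, whose SET domains work poorly alone and are activated by a core of Wdr5, Rbbp5, Ash2l and Dpy30. Kmt2a and its close relative Kmt2b act at promoters and keep developmental genes such as the Hox genes on, Kmt2c and Kmt2d place monomethylation at enhancers, and Setd1a and Setd1b write much of the trimethylation at promoters. Kmt2e has a SET domain too but is known as a reader of the mark rather than as a writer. In humans, loss of a single copy of KMT2A, KMT2D, KMT2E, SETD1A or SETD1B causes neurodevelopmental disorders.

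Total counts lay between 18945762 and 25937707 per pool, and each member had between 226 and 5135 counts in each pool. Values are CPM, counts scaled to the size of each library after TMM normalisation. A gene is said to have risen or fallen where its Benjamini-Hochberg adjusted p was under 0.05 in the quasi-likelihood test of edgeR over all genes tested. By that rule 21.7% of genes rose and 20.8% fell in CRISPant brains, or 25.2% and 25.3% among the 13738 genes with a mean CPM no lower than that of the lowest member. The neurod2 transcripts had log2 fold changes of -0.47 for neurod2.L (edgeR adjusted p = 0.0075) and -0.34 for neurod2.S (edgeR adjusted p = 0.11). As brain samples they expressed neuronal markers, with snap25.L at 438 ± 35.9 CPM in CRISPant brains and 506 ± 36.6 CPM in control brains (SD, n = 4 pools each). Of 14 neuron marker genes tested, 6 fell, snap25.L among them (edgeR adjusted p = 0.011), 1 rose (tubb3.L) and 7 did not pass.

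Members of the H3K4 complexes fell more often than they rose in CRISPant brains. Of the 19 genes, 8 fell (42.1%, against 20.8% of all genes tested), 1 rose (5.26%, against 21.7%) and 10 did not pass the test. The falls were in both homeologues of kmt2a, setd1a and setd1b, in kmt2e.L and in the core subunit ash2l.S, and the rise was in kmt2d.L. In 8 members every CRISPant pool lay below every control pool, which was the case in 18.5% of genes tested. In none did every CRISPant pool lie above every control pool, against 19.4% of genes tested, and the groups overlapped in 11. No member changed by more than 2-fold. In bulk RNA from whole brains, fewer cells that express a gene and less RNA per cell cannot be told apart.

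**Figure D1:**
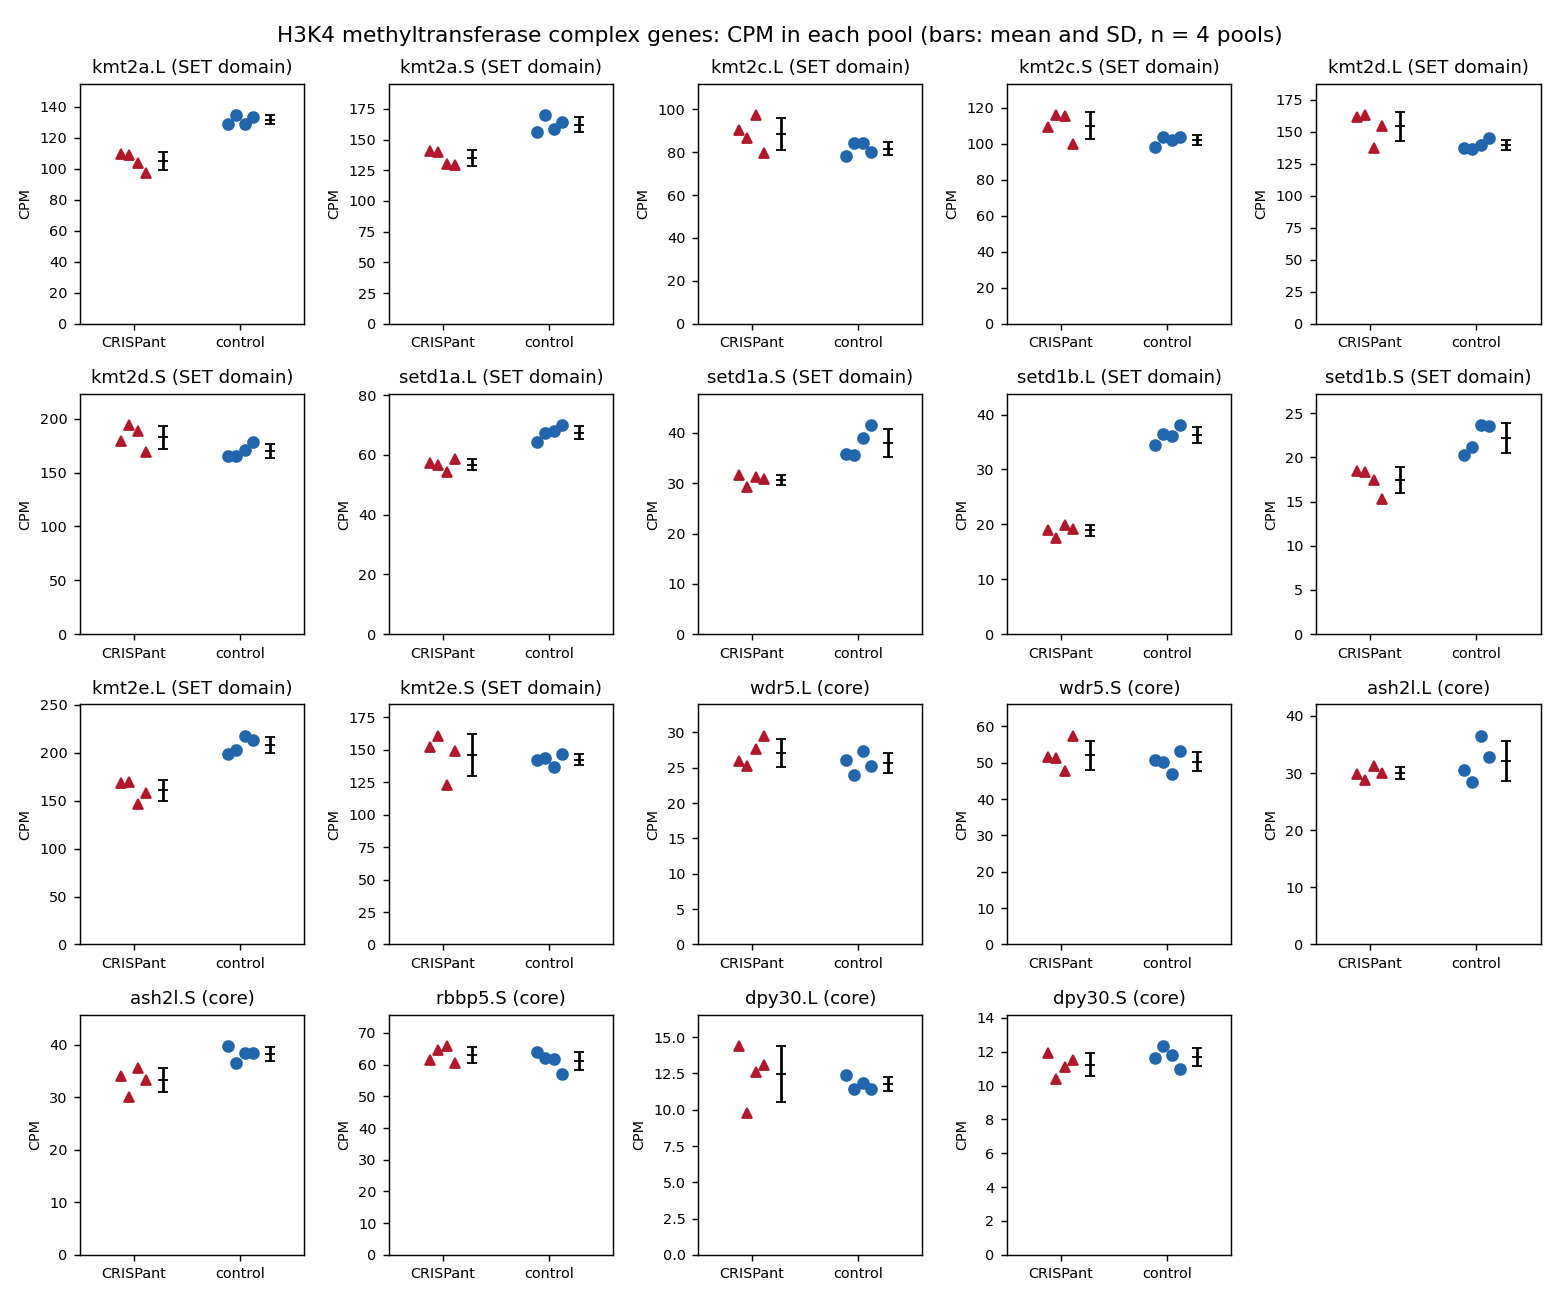
CPM (vertical axes, each starting at 0) of the 19 members in each of the 4 CRISPant pools (red triangles, pools 3, 4, 7 and 9 in that order) and the 4 control pools (blue circles, pools 1, 2, 4 and 5), with the mean and SD of each group in black. The groups stand apart in 8 members, with the CRISPant pools lower in each. Over all genes tested, CRISPant pools were all lower in 18.5% and all higher in 19.4%. The gap relative to the level is widest in setd1b.L, where CRISPant pools lie between 17.6 and 19.9 CPM and control pools between 34.4 and 38.0 CPM.

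The largest change of any member was in setd1b.L, a SETD1 enzyme gene (v10.1 assembly, chr1L:175963910-175990489). It had 18.9, 17.6, 19.9 and 19.2 CPM in CRISPant pools 3, 4, 7 and 9, against 34.4, 36.4, 36.1 and 38.0 CPM in control pools 1, 2, 4 and 5. CRISPant pools were thus close to each other and all far below the control pools. The gene fell by 47.9%, with a log2 fold change of -0.94 (SE 0.07, edgeR adjusted p = 1.8e-09). It ranked 40 by p among genes with a negative fold change, and 1.93% of all genes tested had a more negative one.

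setd1b.S, its homeologue (chr1S:150433944-150473031), fell less. It had 18.5, 18.4, 17.5 and 15.3 CPM in CRISPant pools 3, 4, 7 and 9, against 20.3, 21.1, 23.6 and 23.6 CPM in control pools 1, 2, 4 and 5. The groups did not overlap but came within 2 CPM of each other, and CRISPant pool 9 was the lowest. The log2 fold change was -0.35 (SE 0.08, edgeR adjusted p = 0.0022). RefSeq places an uncharacterised gene, LOC121399086, over part of setd1b.S, and reads from the pair may not have been told apart.

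setd1a, which encodes the other SETD1 enzyme, fell in both homeologues to a similar degree. setd1a.L (chr9_10L:132730547-132763450) had 57.1, 56.6, 54.3 and 58.7 CPM in the CRISPant pools, against 64.5, 67.4, 68.0 and 69.9 CPM in the control pools, in the order above. setd1a.S (chr9_10S:113068074-113099318) had 31.6, 29.3, 31.2 and 30.8 CPM in the CRISPant pools, against 35.8, 35.6, 39.0 and 41.5 CPM in the control pools. Each CRISPant pool was below each control pool for both copies, and the CRISPant pools varied little. Log2 fold changes were -0.25 for setd1a.L (SE 0.05, edgeR adjusted p = 8.7e-04) and -0.31 for setd1a.S (SE 0.07, edgeR adjusted p = 9.6e-04). Summed over the 4 SETD1 genes, levels lay between 122 and 126 CPM in CRISPant brains and between 155 and 173 CPM in control brains.

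kmt2a, the trithorax homologue also called MLL1, fell in both homeologues. kmt2a.L had 109, 109, 104 and 97.4 CPM in CRISPant pools 3, 4, 7 and 9, against 129, 135, 129 and 134 CPM in control pools 1, 2, 4 and 5. kmt2a.S (chr7S:70528766-70631783) had 141, 140, 130 and 129 CPM in the CRISPant pools, against 156, 170, 159 and 164 CPM in the control pools. The groups were apart for both copies, and pools 7 and 9 were the lowest CRISPant pools for each. kmt2a.L fell by 20.3% (log2 fold change -0.33, SE 0.05, edgeR adjusted p = 4.5e-05) and kmt2a.S by 16.8% (log2 fold change -0.27, SE 0.05, edgeR adjusted p = 3.7e-04). Positions are those of RefSeq, matched for 18 of the 19 members, and kmt2a.L is named without one.

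kmt2c and kmt2d, the enhancer enzymes also called MLL3 and MLL4, did not share this fall. All 4 of their genes had positive log2 fold changes, from 0.10 to 0.14, and 1 passed the test (21.7% of all genes tested rose). kmt2d.L (chr2L:142955693-143055040) had 161, 163, 138 and 155 CPM in CRISPant pools 3, 4, 7 and 9, against 138, 137, 140 and 145 CPM in control pools 1, 2, 4 and 5. CRISPant pool 7 lay among the control pools, while the other 3 CRISPant pools were above all of them. The log2 fold change was 0.14 (SE 0.06, edgeR adjusted p = 0.046). This call was narrow. It was lost without control pool 1, 2, 4 or 5 and without CRISPant pool 3, 4 or 9 (adjusted p from 0.051 to 0.13 from edgeR), and held without CRISPant pool 7 (log2 fold change 0.19, edgeR adjusted p = 0.0074). With all pools kept, the call held with median-of-ratios size factors, with DESeq2 and under other filters (edgeR adjusted p = 0.043 and 0.0498 for the filters). With homeologues summed, kmt2d passed as well (log2 fold change 0.12, edgeR adjusted p = 0.043).

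kmt2d.S (chr2S:127904002-127997623) averaged 183 ± 10.8 CPM in CRISPant brains and 170 ± 6.10 CPM in control brains (SD, n = 4 pools each), and its log2 fold change was 0.10 with a 95% interval of -0.01 to 0.22. kmt2c.L (chr6L:13171983-13345537) averaged 88.5 ± 7.33 CPM in CRISPant brains and 81.6 ± 3.09 CPM in control brains, and kmt2c.S (chr6S:9036240-9178300) 110 ± 7.58 and 102 ± 2.60 CPM. The groups overlapped for each of the 3 genes. The intervals of the log2 fold change ran from -0.01 to 0.24 for kmt2c.L and from -0.01 to 0.23 for kmt2c.S, so falls of the size seen in kmt2a and setd1a lay outside them. All 3 genes passed the test as higher without CRISPant pool 9 (adjusted p = 0.034 for kmt2c.L, 0.032 for kmt2c.S and 0.049 for kmt2d.S from edgeR). None of the 3 passed with any other pool left out, where the edgeR adjusted p reached 0.40, 0.29 and 0.29 in the same order. RefSeq places LOC121394529 over part of kmt2c.L.

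kmt2e, the reader-like member also called MLL5, fell in its L homeologue. kmt2e.L (chr3L:83439601-83501034) had 169, 169, 147 and 158 CPM in CRISPant pools 3, 4, 7 and 9, against 199, 203, 218 and 213 CPM in control pools 1, 2, 4 and 5, a log2 fold change of -0.37 (SE 0.06, edgeR adjusted p = 1.9e-05). No CRISPant pool reached the control range. kmt2e.S (chr3S:72982383-73048463) had 152, 161, 123 and 149 CPM in the CRISPant pools, against 142, 143, 137 and 147 CPM in the control pools. CRISPant pool 7 was the lowest pool of all for this copy and the other 3 CRISPant pools the highest, with a log2 fold change of 0.04 and a 95% interval of -0.10 to 0.18 (edgeR adjusted p = 0.66).

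**Figure D2:**
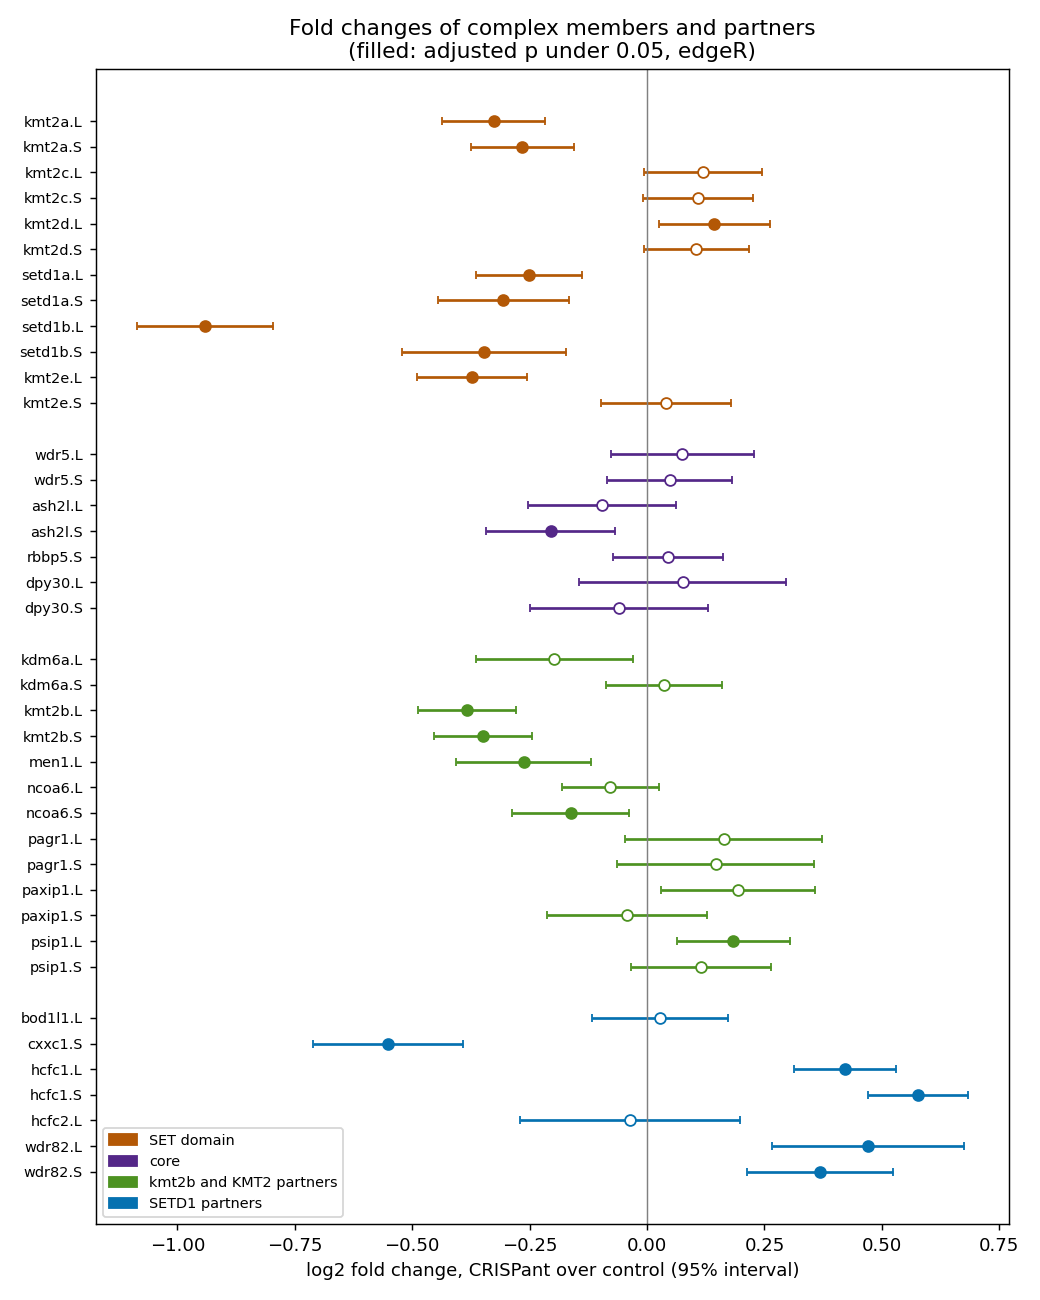
Log2 fold change of CRISPant over control (horizontal axis) for each member and for partner subunits, with 95% intervals and 1 row per homeologue; filled points passed the edgeR test. Among genes with a SET domain 7 lie left of 0 and passed, and among core genes only ash2l.S does (20.8% of all genes tested fell and 21.7% rose). In the SETD1 partners the 4 genes of hcfc1 and wdr82 passed to the right of 0 and cxxc1.S to the left.

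Of the 7 genes for the core subunits, which the KMT2A to KMT2D and SETD1 enzymes share, 1 passed the test. Of all genes tested, 20.8% fell and 21.7% rose. ash2l.S, encoding a subunit that helps to activate the SET domain (chr3S:21200870-21230438), had 34.0, 30.1, 35.6 and 33.3 CPM in CRISPant pools 3, 4, 7 and 9, against 39.7, 36.5, 38.4 and 38.4 CPM in control pools 1, 2, 4 and 5. The groups did not overlap, with CRISPant pool 7 within 1 CPM of control pool 2, and CRISPant pool 4 was the lowest. The log2 fold change was -0.20 (SE 0.07, edgeR adjusted p = 0.016). That call was lost without control pool 1 (edgeR adjusted p = 0.052) and without CRISPant pool 4 (edgeR adjusted p = 0.064). ash2l.L (chr3L:141552886-141576054) had 29.8, 28.7, 31.3 and 30.1 CPM in the CRISPant pools, against 30.5, 28.4, 36.5 and 32.8 CPM in the control pools, a log2 fold change of -0.10 that did not pass (edgeR adjusted p = 0.32). With the counts of both copies summed, ash2l passed (log2 fold change -0.15, edgeR adjusted p = 0.036).

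wdr5 encodes the propeller protein that docks the enzymes onto the core. wdr5.L (chr8L:5578786-5596287) had 25.97, 25.2, 27.6 and 29.5 CPM in CRISPant pools 3, 4, 7 and 9, against 26.2, 24.0, 27.3 and 25.3 CPM in control pools 1, 2, 4 and 5. wdr5.S (chr8S:30335681-30355459) had 51.6, 51.4, 47.8 and 57.5 CPM in the CRISPant pools, against 50.9, 50.3, 47.0 and 53.3 CPM in the control pools. The groups overlapped for both, with CRISPant pool 9 the highest pool for each. Log2 fold changes were 0.07 (95% interval -0.08 to 0.23) for wdr5.L and 0.05 (-0.08 to 0.18) for wdr5.S.

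rbbp5.S, which encodes another beta-propeller subunit of the core (chr2S:62095464-62111568), had 61.4, 64.6, 65.8 and 60.5 CPM in CRISPant pools 3, 4, 7 and 9, against 63.9, 61.9, 61.7 and 57.1 CPM in control pools 1, 2, 4 and 5. The groups overlapped, and the log2 fold change was 0.04 with a 95% interval of -0.07 to 0.16. dpy30, which encodes a small subunit that binds Ash2l, was the least counted member. dpy30.L (chr5L:52357275-52363789) had 14.4, 9.79, 12.6 and 13.1 CPM in the CRISPant pools, against 12.4, 11.4, 11.8 and 11.4 CPM in the control pools. CRISPant pool 4 was the lowest of the 8 pools and CRISPant pool 3 the highest. dpy30.S (chr5S:42399303-42404718) averaged 11.2 ± 0.674 CPM in CRISPant brains and 11.7 ± 0.549 CPM in control brains (SD, n = 4 pools each), and the groups overlapped. Neither copy passed, with 95% intervals of the log2 fold change from -0.15 to 0.30 for dpy30.L and from -0.25 to 0.13 for dpy30.S. RefSeq places LOC121393667 over part of dpy30.L.

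Set side by side, 7 of 12 catalytic genes fell, 1 rose and 4 did not pass, while 1 of 7 core genes fell, 0 rose and 6 did not pass, against 20.8% of all genes that fell and 21.7% that rose. With 7 genes, the core's single fall is near that share. Among core genes the fall was in ash2l.S. At an unadjusted edgeR p under 0.05 the count of members was 9, as after adjustment. At least 12420 of the 25171 genes tested also had such a p, so nothing is read from this count. The median log2 fold change was -0.26 for the catalytic genes and 0.04 for the core genes, and -0.0022 over all genes tested. Without kmt2e, known as a reader rather than a writer, 6 of 10 catalytic genes fell, 1 rose and 3 did not pass, against the same shares of all genes. The catalytic median was also -0.26 without kmt2e, but that median could not have come out otherwise. kmt2e.L lay below that median and kmt2e.S above it, so removing both left the same middle genes. Of the 6 core genes that did not pass, the 95% intervals reached from a change of -16.1% to one of 22.9%.

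Per pool, the median of the catalytic genes, on log2 CPM relative to the mean of the control pools, was -0.22, -0.23, -0.30 and -0.25 in CRISPant pools 3, 4, 7 and 9, against -0.06, 0.0036, 0.0063 and 0.05 in control pools 1, 2, 4 and 5. The same median of the core genes was 0.02, -0.15, -0.03 and -0.01 in the CRISPant pools, against 0.03, -0.04, 0.01 and -0.02 in the control pools. The catalytic medians did not overlap between the groups and the core medians did, and CRISPant pool 4 was the lowest for the core. The catalytic median minus the core median was -0.24, -0.08, -0.27 and -0.23 in the CRISPant pools, against -0.09, 0.05, -0.01 and 0.07 in the control pools, and here CRISPant pool 4 (-0.0831) overlapped control pool 1 (-0.0862). No test was run on these medians, since the members were chosen with earlier results of these data known. In summed CPM, which weights genes by their counts, the catalytic genes lay between 1162 and 1260 in CRISPant brains and between 1260 and 1337 in control brains, with CRISPant pool 4 and control pool 1 level, and the CRISPant mean was 92.7% of the control mean. Without kmt2e the catalytic sum lay between 854 and 930 CPM in CRISPant brains and between 919 and 978 CPM in control brains. Those ranges overlapped, and the CRISPant mean was 94.6% of the control mean. The core sum lay between 220 and 236 CPM in CRISPant brains and between 225 and 235 CPM in control brains, and its CRISPant mean was 99.2% of the control mean.

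**Figure D3:**
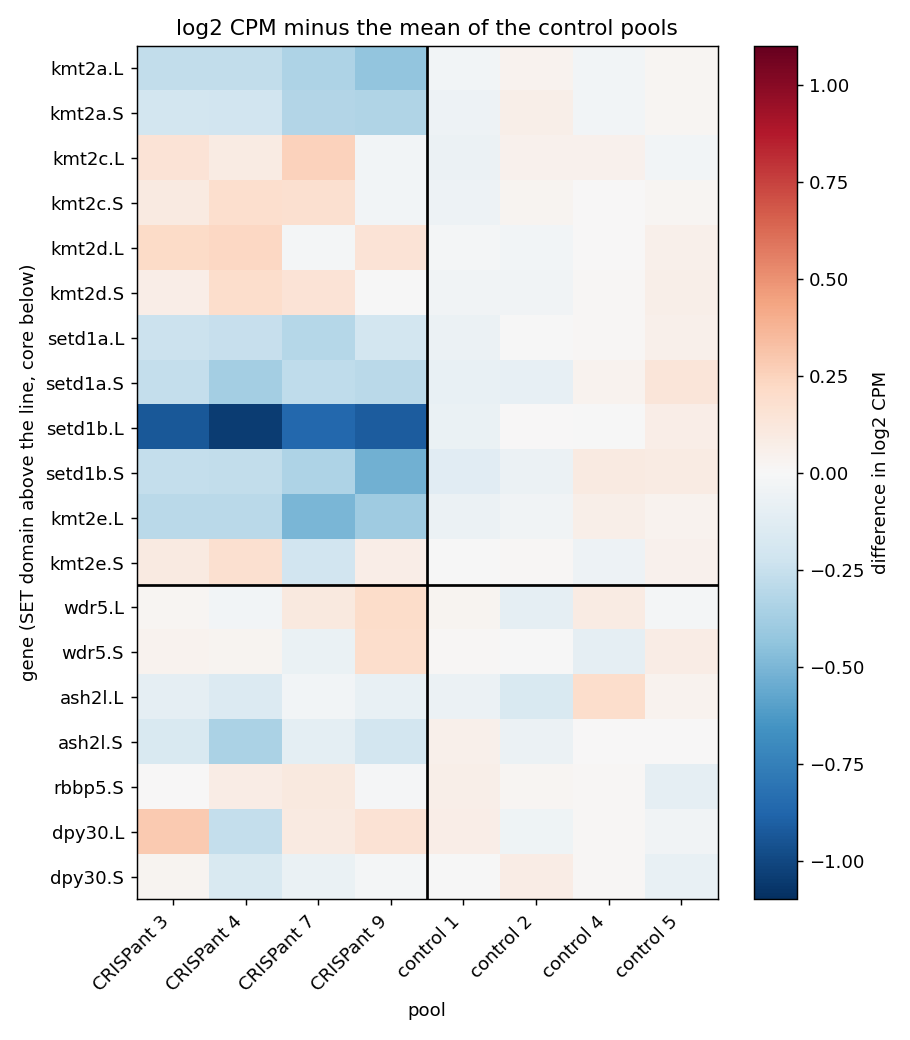
Log2 CPM of each member (rows) in each pool (columns, CRISPant pools left of the line), minus the mean of its 4 control pools, with blue for lower and red for higher values. The rows of kmt2a, setd1a, setd1b and kmt2e.L are blue in all 4 CRISPant pools, kmt2c and kmt2d are mostly pale red, and the 7 core rows at the bottom are mixed.

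Homeologues of a gene were not always called alike, although in kmt2d and ash2l both copies had fold changes of the same sign. Among the 9 members with both copies, both fell in 3 (kmt2a, setd1a and setd1b), 1 copy fell in kmt2e and in ash2l, 1 copy rose in kmt2d, and neither passed in 3 (kmt2c, wdr5 and dpy30). How often both copies fall over all pairs is not given here, so nothing is read from these counts. The ratio of L to S, tested with limma on log2 CPM over 7427 pairs, differed between the groups in 2 of the 9, setd1b and kmt2e, which is close to the 24.2% of all pairs that passed. For setd1b the log2 of L over S was 0.04, -0.06, 0.18 and 0.32 in CRISPant pools 3, 4, 7 and 9, against 0.76, 0.78, 0.61 and 0.69 in control pools 1, 2, 4 and 5. The ratio was lower in every CRISPant pool, with a difference of -0.59 (95% interval -0.80 to -0.38, limma adjusted p = 0.0031).

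For kmt2e the log2 of L over S was 0.15, 0.07, 0.25 and 0.09 in the CRISPant pools, against 0.49, 0.50, 0.67 and 0.54 in the control pools, a difference of -0.41 (95% interval -0.56 to -0.25, limma adjusted p = 0.0044). The CRISPant pools were again all below the control pools. In both genes the L copy had more counts than the S copy in control brains, and the copies were closer in CRISPant brains. There the mean log2 ratio was 0.12 for setd1b and 0.14 for kmt2e. It reached 0.32 for setd1b in pool 9 and 0.25 for kmt2e in pool 7. These ratios are not corrected for transcript length. For the other 7 pairs the ratio did not pass, and their 95% intervals lay between -0.18 and 0.33. How reads that fit both copies were counted is not given in the sources used here.

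**Figure D4:**
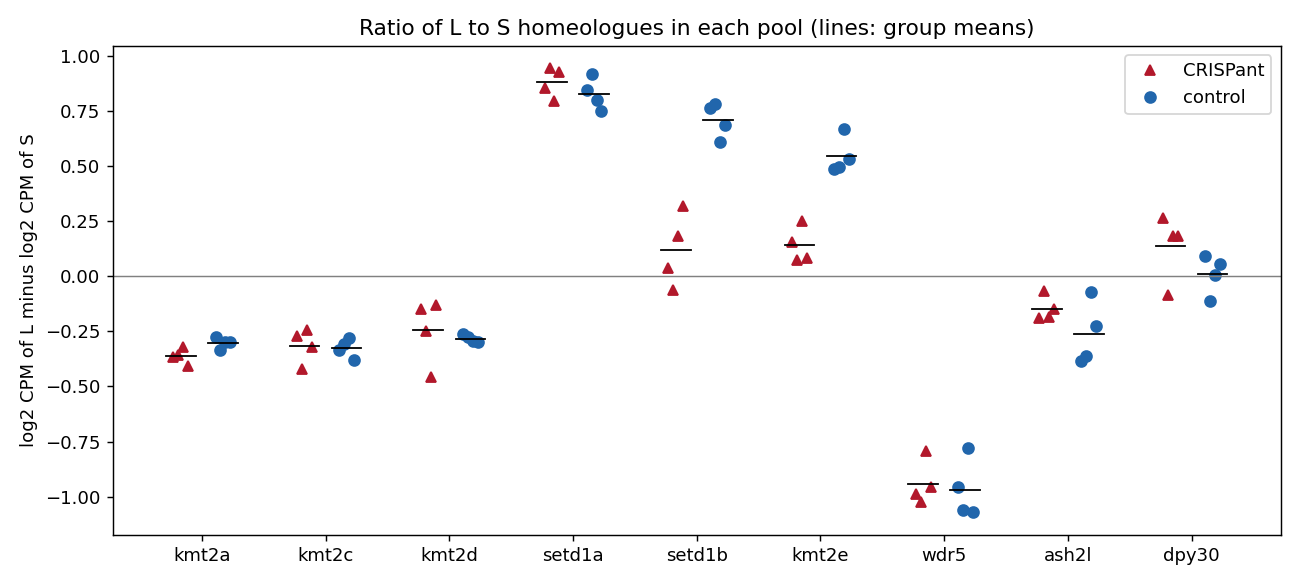
Log2 CPM of the L copy minus log2 CPM of the S copy (vertical axis) in each CRISPant pool (red triangles) and control pool (blue circles) for the 9 members with both copies, with group means as lines. The groups are apart in setd1b (means 0.12 in CRISPant and 0.71 in control brains) and in kmt2e (means 0.14 and 0.55).

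Subunits that join particular enzymes were mixed. In the list of kmt2b and the KMT2 partners, 4 of 13 genes fell, 1 rose and 8 did not pass (20.8% of all genes fell and 21.7% rose). kmt2b, itself an enzyme gene and the closest relative of kmt2a, fell in both homeologues, so among the partner subunits the falls were in men1.L and ncoa6.S only. kmt2b.L averaged 114 ± 2.92 CPM in CRISPant brains and 149 ± 4.78 CPM in control brains, and kmt2b.S 93.9 ± 1.97 and 120 ± 3.46 CPM (SD, n = 4 pools each). Log2 fold changes were -0.38 (edgeR adjusted p = 3.6e-06) for kmt2b.L and -0.35 (edgeR adjusted p = 1.1e-05) for kmt2b.S. men1.L, which encodes menin, a partner of the KMT2A and KMT2B complexes in mammals, fell with -0.26 (34.0 ± 1.06 CPM in CRISPant brains and 40.9 ± 3.79 CPM in control brains). ncoa6.S, a partner of KMT2C and KMT2D, had -0.16 (edgeR adjusted p = 0.034), a call lost without 5 of the 8 pools (control pools 4 and 5, CRISPant pools 4, 7 and 9). psip1.L, which encodes the chromatin tether LEDGF, rose with 0.18. kdm6a, paxip1 and pagr1, further partners of the KMT2C and KMT2D complexes, did not pass in either homeologue.

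Among partners of the SETD1 enzymes, 4 of 7 genes were called higher, 1 lower and 2 neither (21.7% and 20.8% of all genes were higher and lower). The fall was in cxxc1.S, whose protein Cfp1 guides SETD1 complexes to CpG islands. It had 21.6, 23.3, 27.6 and 22.2 CPM in CRISPant pools 3, 4, 7 and 9, against 35.3, 34.5, 36.0 and 33.1 CPM in control pools 1, 2, 4 and 5. CRISPant pools were all lower, with pool 7 the nearest to the controls, and the log2 fold change was -0.55 (SE 0.08, edgeR adjusted p = 7.8e-06). The rises were in hcfc1 and wdr82, both of which are known in other complexes as well. hcfc1.S, encoding host cell factor, averaged 203 ± 8.07 CPM in CRISPant brains and 136 ± 4.13 CPM in control brains, with a fitted difference of 0.58 in log2 (edgeR adjusted p = 2.2e-08), and hcfc1.L had 0.42. wdr82.L and wdr82.S, for a subunit that links SETD1 to RNA polymerase II, had 0.47 and 0.37. Thus genes of the SETD1 complexes went both ways, with setd1a, setd1b and cxxc1.S lower and hcfc1 and wdr82 higher.

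Genes that remove, prepare or read H3K4 methylation changed in both directions, in counts near the shares of all genes (21.7% rose and 20.8% fell), so nothing is read from these counts about the lists. Of 14 genes for H3K4 demethylases and their CoREST partners, 4 rose and 3 fell (median log2 fold change 0.02). kdm1a.S, encoding the demethylase LSD1, rose with 0.38 (169 ± 5.56 CPM in CRISPant brains and 130 ± 5.08 CPM in control brains, SD, n = 4 pools each), kdm5b.S with 0.32 and rcor1.L, a CoREST gene at 4.71 ± 0.662 CPM in CRISPant brains and 2.97 ± 0.287 CPM in control brains, with 0.66. The falls were in rcor2.S (-0.34), kdm5a.L (-0.22) and rcor3.S (-0.22), and kdm1a.L had 0.07 (edgeR adjusted p = 0.46). Of 20 genes for the PAF1 complex and the ubiquitination of H2B, which precede H3K4 methylation, 3 rose and 5 fell, with a median of -0.06. ube2b.L, an E2 enzyme gene, fell with -0.42 while ube2b.S rose, and summed the pair had -0.01 (edgeR adjusted p = 0.89). skic8.S rose with 0.52, and wac.L, which encodes an adaptor for H2B ubiquitination, fell with -0.26. Of 20 genes for readers of the mark, 3 rose and 3 fell, with a median of -0.08. ing3.S fell with -0.38, and taf3.S and bptf.S rose with 0.28 and 0.18. The last call was lost with homeologues summed (log2 fold change 0.03, edgeR adjusted p = 0.55).

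**Figure D5:**
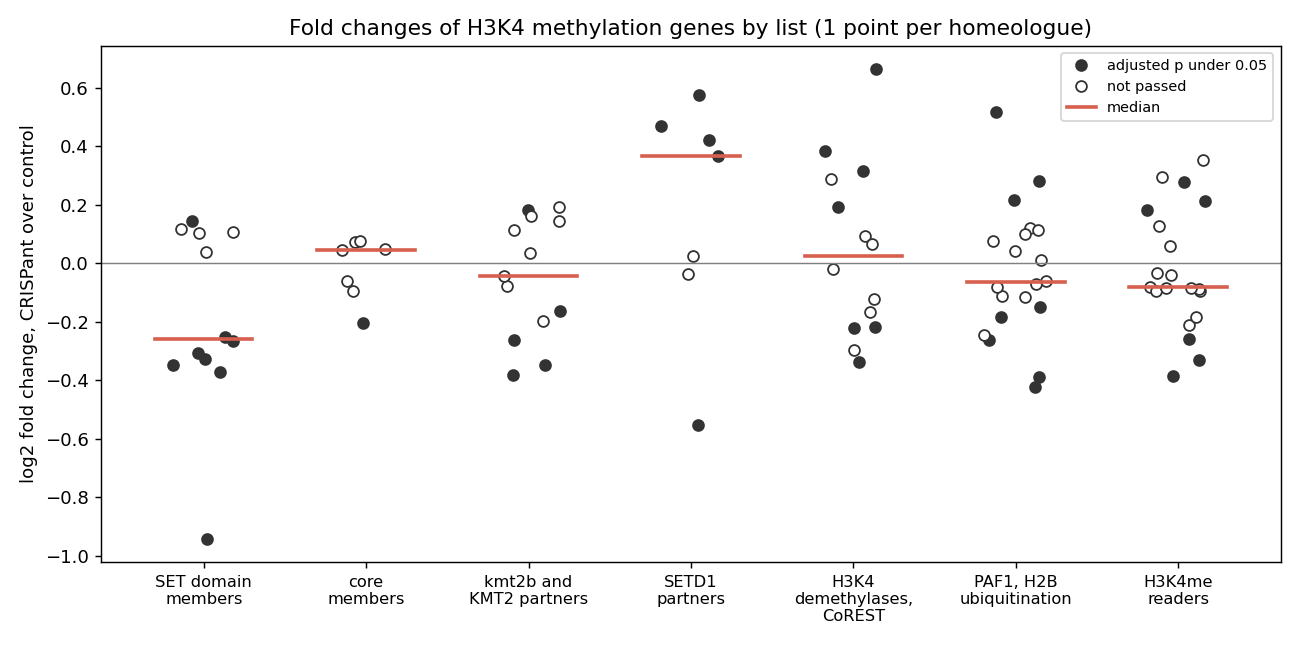
Log2 fold changes of CRISPant over control (vertical axis) for the members and for 5 lists of genes around H3K4 methylation, with 1 point per homeologue (horizontal scatter within a list has no meaning), filled where the edgeR test was passed, and the median of each list as a line. Medians lie at -0.26 for SET domain members and 0.04 for the core, and the highest, 0.37, is that of the 7 SETD1 partners.

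Markers of dividing cells were higher in the same brains, and so were some of the progenitor markers. Over all genes tested, 21.7% rose and 20.8% fell. All 13 tested genes of the marker list for cycling cells rose, and their summed level lay between 909 and 1177 CPM in CRISPant brains and between 414 and 515 CPM in control brains. Of 15 progenitor marker genes 7 rose, 8 did not pass and none fell (summed level 2344 to 2773 CPM in CRISPant brains and 1845 to 2164 CPM in control brains). fabp7.L weighed most in that sum, with a mean of 1312 CPM in CRISPant brains and 975.5 CPM in control brains. Both copies of sox2 and of pax6 had negative log2 fold changes, from -0.14 to -0.11, that did not pass. Of 14 neuron marker genes 6 fell and 1 rose (4545 to 5042 and 4693 to 4964 CPM). Their part in the changes of the H3K4 genes was not tested. Markers of microglia were low, with 2 of 5 tested genes lower, 0 higher and summed levels of 4.97 to 7.54 CPM in CRISPant brains and 7.20 to 10.4 CPM in control brains. With so few genes at such low levels, nothing is read from that count. Red blood cell markers did not pass in any of 7 genes (513 to 1377 CPM in CRISPant brains and 610 to 975 CPM in control brains), and 5 of 10 genes of cartilage, fibroblasts and meninges rose while 1 fell (296 to 358 and 226 to 308 CPM). Those rises were in both copies of col1a1 and of col3a1 and in col1a2.L, and the fall was in col1a2.S. Neither copy of col2a1 or of acan passed.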

How the data were processed

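Whole brain RNA of 8 pools was sequenced as single reads of 100 bp from stranded mRNA libraries. The deposited table holds raw counts per gene, which the authors made with DRAGEN on XENLA_10.1 and FeatureCounts, with no normalisation. Its 8 columns were mapped to samples by library name. Genes kept by filterByExpr (minimum count 10) were scaled by TMM and tested with robust glmQLFit and glmQLFTest in edgeR 4.0.16 (R 4.3.3), with condition as the only term. Standard errors come from the fold change and F, and 95% intervals use the total degrees of freedom of the test (residual plus prior). L to S ratios were tested with limma 3.58.1 (trend, prior count 2) on log2 CPM. The code was tested on simulated data. Members and lists were chosen with earlier results of these data known. Every member was described, and of each partner list up to 3 genes with the smallest p. Other members of the KMT2 and SETD1 partner lists that passed (psip1.L, ncoa6.S, wdr82.L and wdr82.S), and rcor2.S, kdm5a.L, rcor3.S, kdm1a.L and ube2b.S, were named after their values were seen. All 12 replicate pairs exceeded sampling noise (chi-square per degree of freedom 3.74 to 8.48) and were kept as separate pools. Alternatives were median-of-ratios size factors, DESeq2 1.42.0, other filters, summed homeologues, another prior count and each pool left out. Coordinates are from RefSeq for assembly v10.1, matched by symbol. Cell type lists not described above are oligodendrocytes (10 genes, 1 rose, 3 fell) and endothelium (12 genes, 1 rose, 3 fell). In the whole tested set, 21.7% were called higher and 20.8% lower. With lists this short, nothing is read from their counts.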

Additional observations from a re-analysis of the deposited data

How the results depend on the processing

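Each member was refitted under 13 alternatives, and 12 of the 19 kept their side of the threshold in all of them, among them 7 of the 8 that fell (all but ash2l.S). Of those 12, wdr5.S and dpy30.S, near 0 throughout, changed sign once each (-0.0011 for wdr5.S without CRISPant pool 9, and 0.0099 for dpy30.S with homeologues summed). Leaving out pools gave setd1b.L log2 fold changes of -0.97 to -0.91, and summing its homeologues gave -0.69. The count of members that fell was 7 or 8 under every alternative fitted per homeologue, and 5 of 10 genes with homeologues summed, which joins the copies (kmt2a, setd1a, setd1b, kmt2e and ash2l). The count that rose was 0 to 3 over the pools left out. With homeologues summed it was 1, in kmt2d (log2 fold change 0.12, edgeR adjusted p = 0.043). Over all genes, 5223 fell and 5454 rose in the main fit, against 3823 and 3954 with homeologues summed. The share of all genes called under each alternative is not given here, so these member counts are not read against a background. kmt2e.S, at 0.04 on its own, takes the value of both copies when they are summed, -0.19 (edgeR adjusted p = 0.010), which reverses its sign, and it was -0.0089 without CRISPant pool 4. The L to S ratio passed in 2 member pairs with a prior count of 0.5 and with each pool left out. The core median lay between -0.0011 and 0.05 over the pools left out, and median-of-ratios scaling moved the median gene by -0.0012. No paired analysis was run, because no label pairs CRISPant pools with control pools. The groups share only replicate number 4, and nothing says that a shared number marks a pair. dpy30, the least counted member, had the largest standard errors of the log2 fold change (0.11 for dpy30.L and 0.09 for dpy30.S). The part of counting depth in this was not tested.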

Other observations

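Coefficients of variation over the 19 members ran from 3.20% to 15.6% (median 6.66%) in CRISPant brains and from 2.27% to 10.9% (median 3.95%) in control brains. CRISPant pool 7 had the lowest CRISPant level of kmt2d.L and of both kmt2e copies. Its kmt2d.L level (138 CPM) was the lowest of the CRISPant pools while its kmt2d.S level (189 CPM) was the next to highest, so its log2 ratio of L to S was -0.46, against -0.15, -0.25 and -0.13 in CRISPant pools 3, 4 and 9 and -0.26 to -0.30 in the control pools. In kmt2e both copies were lowest in pool 7 among the CRISPant pools (147 CPM for kmt2e.L and 123 CPM for kmt2e.S). No member had a pool that stood apart from the other 3 of its group by Dixon's test.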
